A study of Drosophila melanogaster with 21 samples.

Results

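The comparison described here is the response of Drosophila S2 cells to 48 h of depletion of CG11247 (Saft), a zinc-finger transcription factor. Its members were 4 of the 21 libraries of the series: both libraries of cells given auxin for 48 h and both libraries of cells given solvent only, called untreated here. S2 is a Schneider line derived from fly embryos. All S2 libraries came from 1 clone, 9C, which expresses the plant protein OsTir1 and carries a FLAG-AID degron tag on both copies of the Saft gene. OsTir1 with auxin directs proteins with this tag to degradation. The auxin, indole-3-acetic acid, was given at 500 µM. A further pair of libraries had auxin for 24 h, and those 2 libraries entered the same fit. The samples hold no untagged cells given auxin, so in S2 cells alone effects of auxin itself and of the loss of Saft cannot be told apart. The rest of the series served as an independent readout: brains (6 libraries) and ovaries (9 libraries) of adult females 3 to 4 days old of mutant 1 (a small frame-shifting deletion in exon 1 of Saft), of mutant 2 (a frame-shifting deletion in exon 2) and of their isogenised white parent strain. The labels list both mutant stocks over the TM3,Sb balancer, and the sources used here leave unstated whether the dissected females were homozygous.

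Zinc-finger transcription factors bind DNA and can recruit proteins that raise or lower the transcription of nearby genes. S2 cells resemble hemocytes, the blood cells of the fly, and do not build cuticle, chitin or polarised epithelium. The apical extracellular matrix of epithelia is made of chitin, of membrane-anchored zona pellucida (ZP) proteins and of lipids exported by ABC transporters. The giant cadherins Fat and Dachsous act between epithelial cells, and set tissue growth and planar polarity through Dachs, its partners and the Hippo kinases.

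RNA was read from the 3' end of polyadenylated transcripts, and levels are given as CPM, counts scaled to a common library total by TMM. Gene totals were 8.93 M and 6.94 M counts in 48 h libraries 1 and 2 (M for mega) and 8.31 M and 6.42 M in untreated libraries. The identity of the line was checked on 20 hemocyte markers, of which 19 were in the table. Hml had 260 and 440 CPM at 48 h and 253 and 639 CPM in untreated cells. The GATA factor srp had 82.8 and 68.2 CPM at 48 h, against 84.8 and 68.4 CPM in untreated cells. NimC1, NimC2, He, PPO1 and PPO2 were each under 1 CPM in both untreated libraries, so the hemocyte profile was incomplete. Libraries with the same replicate number resembled each other across treatments. Hsp23 had 17.4 and 62.1 CPM in 48 h libraries 1 and 2, against 10.4 and 99.5 CPM in untreated libraries 1 and 2. The comparison therefore paired 48 h and untreated libraries by replicate number, as a block in edgeR's quasi-likelihood test. The labels do not say what a replicate number marks. CG11247 mRNA had 28.6 and 25.0 CPM at 48 h and 21.3 and 18.3 CPM in untreated cells (log2 0.44 ± 0.19 SE, edgeR adjusted p = 0.286). The degron acts on the protein, so this level does not check the depletion.

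Depletion for 48 h was followed by rises and falls in a small share of the genes. The rises included genes silent in untreated cells, such as snu and Cad96Ca, and genes already expressed there, such as qsm and CG9782. Of 7152 genes tested, 110 were higher at 48 h (1.54% of those tested) and 81 were lower (1.13%) at an edgeR adjusted p under 0.05. Without the replicate block, 8 genes were higher (0.112%) and 0 were lower, with 91 higher and 61 lower at an unadjusted p under 0.05. The 8 were snu, rtv, qsm, Cad96Ca, Dlish, Rcd6, conv and CG9782. With DESeq2 and the block, 47 were higher and 29 lower, all of them among the 110 and 81. Leaving out untreated library 1 left 42 higher and 27 lower, leaving out untreated library 2 left 44 and 26, and leaving out 48 h library 1 left 48 and 34. Without 24 h library 1 the counts were 161 and 127, and without 24 h library 2 they were 178 and 138. The number of calls thus changed with the pairing and with single libraries. Of the 110 higher genes, 49 overlap an annotated gene on the opposite strand and 26 overlap one on the same strand, and the strand setting of the counting is not given in the labels or file headers. Of the 81 lower genes, 46 overlap an annotated gene on the opposite strand and 25 overlap one on the same strand. The values of such genes are uncertain.

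The called genes were sorted by their level in untreated cells. Of the 110 higher genes, 24 had a mean under 1 CPM in untreated cells, 11 had 1 to 5 CPM, 44 had 5 to 50 CPM and 31 had at least 50 CPM. The median log2 change of these 110 was 0.86, and it was the same with undetected genes set at their lower bound. Rises of at least 2-fold numbered 44, and 30 genes rose less than 1.5-fold. The median change by starting level was 2.02 on the log2 scale for genes at 1 to 5 CPM, 0.76 at 5 to 50 CPM and 0.47 from 50 CPM up. A gene with a low start must change by more to pass the test, and the filter on low counts admits such a gene mainly through the treated libraries. Of the 81 lower genes, 58 had at least 50 CPM in untreated cells, 14 fell at least 2-fold and 39 fell less than 1.5-fold, with a median log2 change of -0.59. The 2 groups of libraries did not overlap for 90 of the 110 higher genes (11.9% of all tested genes were apart in that direction) and for 53 of the 81 lower genes (10.4%). Both library pairs moved the same way for all 110 and all 81, against 29.3% of tested genes higher in both pairs and 28.5% lower in both. The plot of change against starting level shows these genes among all genes tested.

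**Figure D1:**
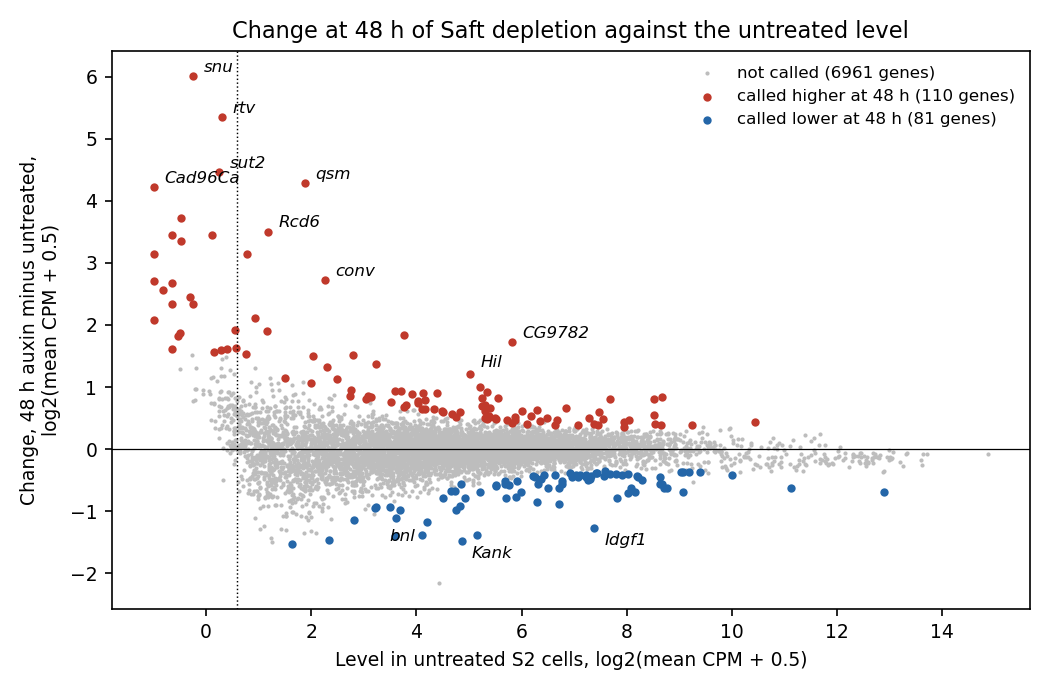
Change at 48 h, as the difference of log2(mean CPM + 0.5) between 48 h and untreated S2 cells, against the level in untreated cells, for all 7152 genes tested. Red points are the 110 genes called higher, blue points the 81 called lower, grey points the rest, and the dotted line marks 1 CPM; the largest rises lie at the left edge and the falls lie mostly at high levels.

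Among the genes with the largest rises were 3 of an apical matrix and chitin list and 1 ZP-domain gene. snu (FBgn0039594), an ABC transporter of the lipid barrier of the cuticle, had 62.6 and 45.1 CPM at 48 h, against 0.387 and 0.304 CPM in untreated cells. Both 48 h libraries stood far above both untreated ones (log2 7.22 ± 0.32, edgeR adjusted p = 2.88e-65, and 0.00184 without the block). rtv (FBgn0261277), a Ly6-type membrane protein needed to organise chitin, had 45.7 and 54.1 CPM at 48 h and 0.258 and 1.22 CPM in untreated cells (log2 6.12 ± 0.29, edgeR adjusted p = 5.41e-59). The gene overlaps Lint-1 on the opposite strand. Lint-1 itself had 3.77 and 3.32 CPM at 48 h and 3.35 and 1.98 CPM in untreated cells, and was not called. conv, a leucine-rich repeat protein of the tracheal apical matrix, had 33.0 and 29.1 CPM at 48 h, against 5.03 and 3.50 CPM in untreated cells (log2 2.86 ± 0.23, edgeR adjusted p = 1.72e-25). qsm, a ZP-domain protein, had 80.8 and 60.7 CPM at 48 h and 3.74 and 2.59 CPM in untreated cells (log2 4.47 ± 0.21, edgeR adjusted p = 4.11e-62). In none of these 4 did the groups overlap.

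Few other genes of the same pathway were expressed. Of 25 apical matrix and chitin genes in the table, 9 could be tested, 3 were higher (snu, rtv and conv) and 0 were lower, beside 1.54% higher and 1.13% lower of all genes tested. The lists were chosen with earlier results of these data known. The median log2 change of the 9 was -0.05, beside 0.00043 over all tested genes. The chitin synthase kkv, for which rtv is a partner in chitin deposition, had 0 CPM in both 48 h libraries and 0.129 and 0 CPM in untreated cells. The chitin deacetylases serp and verm were each under 0.5 CPM in all 4 libraries. Of 12 ZP-domain genes in the table, 3 were tested and qsm alone was called. The other 2, pio and pot, had 3.10 and 2.08 CPM and 10.5 and 9.13 CPM at 48 h, and 1.81 and 2.13 CPM and 8.51 and 12.6 CPM in untreated cells.

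A list of Fat-Dachsous and Hippo genes held 3 genes that rose. Dlish, an SH3-domain protein that binds Dachs, had 6.09 and 6.92 CPM at 48 h, against 0.129 and 0.152 CPM in untreated cells. The counts were 105 in the 48 h libraries and 2 in the untreated ones, a ratio of 46.3 with an exact 95% counting interval of 12.5 to 387. lft, which binds the intracellular parts of Fat and Dachsous, had 4.65 and 8.99 CPM at 48 h and 0.129 and 0.304 CPM in untreated cells, a ratio of 31.4 (10.5 to 155). Fbxl7, an F-box protein that acts downstream of Fat, had 3.44 and 2.08 CPM at 48 h and no count in untreated cells. Against a floor of 3 counts over both untreated libraries, Fbxl7 was at least 13.5-fold higher. The edgeR adjusted p was 5.95e-12 for Dlish, 2.52e-12 for lft and 6.70e-06 for Fbxl7. These were 3 of 15 tested genes of the 17 in the table, and 0 were lower, beside 1.54% higher and 1.13% lower of all genes tested. The 3 were silent in untreated cells. Dlish overlaps CG10934 on the same strand and Snx16 on the opposite strand, and Fbxl7 overlaps CG34276 on the same strand and 3 genes on the opposite one. Snx16 had 8.09 and 11.6 CPM at 48 h and 7.87 and 8.67 CPM in untreated cells, and was not called. The median log2 change of the 15 was 0.06. The cadherin ft had 2.66 and 5.12 CPM at 48 h, against 1.55 and 2.28 CPM in untreated cells, and was not called (edgeR adjusted p = 0.396). Its ligand ds stayed under 0.2 CPM in all 4 libraries. The Hippo pathway kinase wts had 327 and 274 CPM at 48 h and 341 and 272 CPM in untreated cells.

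Cad96Ca (FBgn0022800), also named Stitcher, is a receptor tyrosine kinase with a cadherin domain that acts in epidermal wound repair. It had 9.75 and 7.89 CPM at 48 h and no count in either untreated library. The 48 h libraries held 145 counts, which made the gene at least 42.6-fold higher (edgeR adjusted p = 7.64e-19, and 0.0236 without the block). Of 8 tested receptor tyrosine kinases, Cad96Ca rose and Alk fell, and of 6 tested cadherins Cad96Ca alone was called. The shares over all genes tested were 1.54% higher and 1.13% lower. Cad96Ca overlaps CG13654 on the opposite strand. Its neighbour in name, Cad96Cb, was at 0 in all 4 libraries.

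Further called genes encode membrane transporters or a channel, and no list of such genes was counted. sut2, a sugar transporter of the major facilitator type, had 17.4 and 33.6 CPM at 48 h, against 0 and 1.37 CPM in untreated cells (log2 5.28 ± 0.36, edgeR adjusted p = 1.15e-30, and 0.367 without the block). sut1, the gene beside it, had 14.3 and 24.2 CPM at 48 h and 3.35 and 9.43 CPM in untreated cells (log2 1.67 ± 0.25, edgeR adjusted p = 3.42e-08). In both genes replicate 2 was higher than replicate 1 in each group, and the groups did not overlap. CG11147, of the same ABC transporter subfamily as snu, had 8.42 and 9.55 CPM at 48 h and 0.129 and 0.304 CPM in untreated cells, a ratio of 42.6 (14.3 to 209). sand, a potassium channel gene known from sleep screens, had 2.99 and 4.15 CPM at 48 h, against 0.129 and 0.152 CPM in untreated cells, a ratio of 25.1 (6.64 to 213). CG11147 overlaps CG11030 and sand overlaps uno, each on the opposite strand. In build BDGP6, sut1, sut2 and sand lie in a row on arm 2R. The gap between sut1 and sut2 is 244 bp and that between sut2 and sand 2398 bp. sut1 was looked at after the values were seen, because of this position.

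A further 4 named genes belonged to none of the lists. Rcd6 was among the 10 largest rises, and CG9782 was called with and without the block. CG13024 and Hil were named only because they were also called in brain and ovary. Rcd6, found in screens for centrosome function, had 21.5 and 28.9 CPM at 48 h and 2.32 and 1.22 CPM in untreated cells (log2 3.78 ± 0.29, edgeR adjusted p = 2.75e-28). CG9782 was the most abundant of the 8 genes called with and without the block, at 198 and 173 CPM at 48 h and 56.0 and 55.5 CPM in untreated cells (log2 1.73 ± 0.12, edgeR adjusted p = 9.39e-35). CG13024 had 7.65 and 21.7 CPM at 48 h, against 0.774 and 1.67 CPM in untreated cells (log2 3.51 ± 0.37, edgeR adjusted p = 1.59e-16). Hil, a transglutaminase-like cytoskeletal protein, had 80.6 and 68.6 CPM at 48 h and 35.5 and 28.1 CPM in untreated cells (log2 1.23 ± 0.14, edgeR adjusted p = 4.18e-14). Each of these 4 kept its call when any 1 library was left out. Rcd6 overlaps FAM21 and CG13024 overlaps nudC, each on the opposite strand.

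Which of the changed genes were silent in untreated cells was asked directly. Silent means under 1 CPM in both untreated libraries, which held for 3641 of 11010 genes in the table (33.1%). Only 57 of these passed the low-count filter, among the 7152 genes tested. Of the 57, 18 were higher at 48 h, beside 1.54% of all genes tested. The filter admits a silent gene mainly through the auxin-treated libraries, which shapes this share. The 18 made up 16.4% of the 110 higher genes, a share to be set against the genes tested, not the whole table. In order of their mean level at 48 h they were snu, Tep3, CG11147, Cad96Ca, lft, Dlish, CG1299, NimC4, RhoGEF64C, sand, zld, CG4115, Fbxl7, blo, CG13606, CG15544, hui and CG7991. That mean ran over 1.45 to 53.9 CPM with a median of 3.67 CPM, and 6 of the 18 reached 5 CPM. All 18 had separate groups, which the filter and the call both favour. Without the block 3 of the 18 were called (snu, Cad96Ca and Dlish), and with DESeq2 10 were. Without untreated library 1, or without 48 h library 1, 11 silent genes were called. Reads at the 3' end do not grow in number with transcript length, so levels of different genes were set in order. Neighbours in this order overlapped in their 48 h libraries, except snu and Tep3, Tep3 and CG11147, and Dlish and CG1299. Tep3 had 12.0 and 10.8 CPM, above the 8.42 and 9.55 CPM of CG11147, and Cad96Ca with 9.75 and 7.89 CPM overlapped CG11147.

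**Figure D2:**
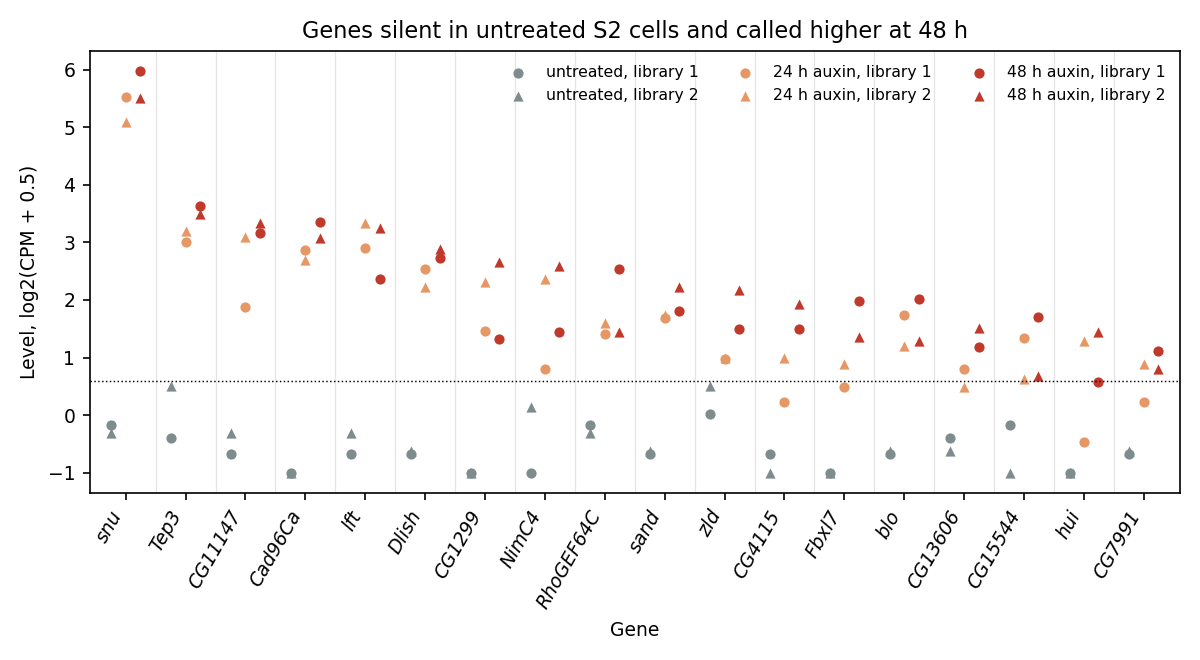
Level, as log2(CPM + 0.5), of the 18 genes silent in untreated S2 cells and called higher at 48 h, in order of the 48 h mean. Each gene has 2 untreated, 2 24 h and 2 48 h libraries, circles for library 1 and triangles for library 2, and the dotted line marks 1 CPM; all untreated points lie under it, and snu stands above the other 17 at 48 h.

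Of the 1301 genes with no count in either untreated library, 4 were tested: Cad96Ca, CG1299, Fbxl7 and hui. These 4 were called higher, a direction that the low-count filter fixed, since a gene with no untreated count could pass it only through the auxin-treated libraries. CG1299 had 1.99 and 5.81 CPM at 48 h and was at least 17.6-fold higher. hui had 0.997 and 2.21 CPM at 48 h and was at least 7.35-fold higher. A further 880 undetected genes had some count at 48 h but too few to be tested, the highest with 14 counts over both libraries. At this depth such genes cannot be sorted into risen and not risen.

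Tep3, a thioester protein of the humoral immune response, had 12.0 and 10.8 CPM at 48 h, against 0.258 and 0.913 CPM in untreated cells (log2 4.31 ± 0.45, edgeR adjusted p = 6.88e-17). NimC4, a phagocytic receptor for dying cells, had 2.22 and 5.53 CPM at 48 h and 0 and 0.608 CPM in untreated cells (log2 3.74 ± 0.71, edgeR adjusted p = 3.06e-05). NimC4 overlaps nAChRalpha5 on the same strand, and nAChRalpha5 had 2.88 and 7.19 CPM at 48 h and 0.258 and 1.67 CPM in untreated cells, so their counts cannot be told apart with certainty. RhoGEF64C, which overlaps annotated genes on both strands, had 5.32 and 2.21 CPM at 48 h, against 0.387 and 0.304 CPM in untreated cells (log2 3.37 ± 0.67, edgeR adjusted p = 9.21e-05). The call ended when untreated library 1 was left out (edgeR adjusted p = 0.110), and likewise 48 h library 1 (0.371). zld, the pioneer factor of the early embryo, had 2.33 and 4.01 CPM at 48 h and 0.516 and 0.913 CPM in untreated cells. The fold of CG4115 rested on 45 counts at 48 h and 1 count in untreated cells, a ratio of 39.7 with a counting interval of 6.77 to 1602.

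The silent set had an edge on both sides. With silence set at under 0.5 CPM the number was 15, at under 2 CPM it was 27, and at 3 counts or fewer over both untreated libraries it was 13. The other 39 tested silent genes were not called. In 41 silent genes both 48 h libraries reached 1 CPM. Of these, 17 were called, and 7 were not tested: CG32017, CG33099, CG7900, CG8180, DAAM, DAT and Ggt-1. The dopamine transporter DAT was 1 such gene, with 15 and 9 counts at 48 h and 1 and 1 in untreated cells. At the threshold of the test, CG31259 (log2 2.24, edgeR adjusted p = 0.0474) and JhI-26 (0.83, 0.0487) lay just inside on the higher side, and mgl (0.55, 0.0520) just outside. On the lower side CG43336 (-1.09, 0.0491) lay just inside and CG9164 (-1.73, 0.0516) just outside. In the other direction, 44 genes were silent at 48 h with both untreated libraries at 1 CPM or more, and 1 of them, CG14367, was called lower.

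Genes of detoxification were among those already expressed in untreated cells. Glutathione S-transferases, which conjugate foreign and oxidised compounds, gave 4 of 14 tested xenobiotic response genes (GstE3, GstE6, GstE9 and GstD9), with 0 lower, beside 1.54% higher and 1.13% lower of all genes tested, and a median log2 change of 0.46 over the 14. GstE6 had 46.5 and 102 CPM at 48 h, against 22.7 and 50.7 CPM in untreated cells. The groups overlapped, yet each pair rose by about the same amount, 1.02 in pair 1 and 1.00 in pair 2 on the log2(CPM + 0.5) scale (edgeR log2 1.02 ± 0.14, adjusted p = 1.33e-09, and 1.00 without the block). GstE3 had 12.0 and 10.1 CPM at 48 h and 3.48 and 3.65 CPM in untreated cells (log2 1.63 ± 0.31, edgeR adjusted p = 4.64e-05). The calls of GstE3 (0.122 without 48 h library 1), GstE9 (0.424 without untreated library 2) and GstD9 (0.560 without untreated library 2) were each lost when a library was left out. Among all genes named GstE, looked at after the values were seen, 3 of 9 tested genes were higher and GstE12 was lower. GSTs are close paralogs, and the handling of reads they share was not stated, so their values are uncertain. The part of auxin itself in these rises was not tested.

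Of 21 tested immune genes, 3 were higher (Tep3, Drs and PGRP-SA) and 3 lower (Dif, spz and Tep2), beside the same 1.54% and 1.13% of all genes tested, with a median log2 change of 0.16. Drs, an antifungal peptide gene, had 70.4 and 62.8 CPM at 48 h and 51.1 and 32.7 CPM in untreated cells (log2 0.68 ± 0.14, edgeR adjusted p = 1.47e-04). Dif, an NF-kappaB factor of the Toll pathway, had 29.1 and 31.3 CPM at 48 h, against 44.6 and 46.2 CPM in untreated cells (log2 -0.59 ± 0.16, edgeR adjusted p = 0.0131). spz encodes the ligand of Toll, and PGRP-SA recognises bacteria upstream of it. The calls of Drs (0.375 without untreated library 2), PGRP-SA (0.793 without 48 h library 1) and Dif (0.562 without 48 h library 1) depended on single libraries.

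The pairwise view shows both the size and the limit of these changes.

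**Figure D3:**
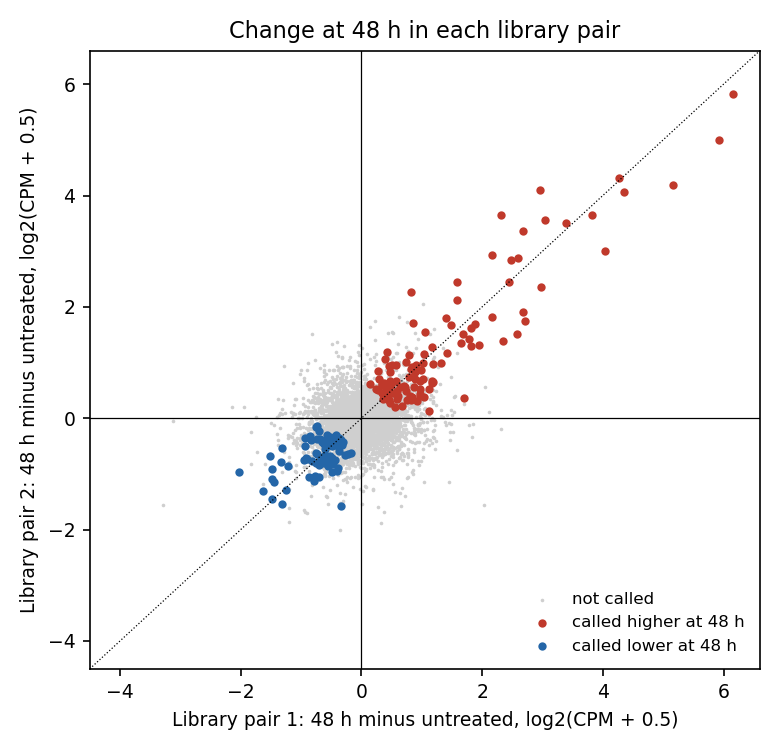
Change at 48 h in library pair 1 (x axis) and library pair 2 (y axis), each as 48 h minus untreated on the log2(CPM + 0.5) scale, for the genes tested in S2 cells. The 110 genes called higher (red) and 81 called lower (blue) lie in the quadrants where both pairs moved the same way. The dotted line marks equality of the pairs. Some large rises lie near it, such as qsm (4.26 and 4.31), and others lie off it, such as Rcd6 (2.96 and 4.10) and rtv (5.93 and 4.99).

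Genes that were lower at 48 h were mostly well expressed, and their changes were smaller. Idgf1, a chitinase-like secreted growth factor, had 72.8 and 63.4 CPM at 48 h, against 174 and 156 CPM in untreated cells, with no overlap (log2 -1.28 ± 0.12, edgeR adjusted p = 8.61e-21, and 0.242 without the block). In its family, looked at after the values were seen, 3 of 5 tested genes were lower, beside 1.13% of all genes tested. Idgf2, 536 bp from Idgf1 on arm 2L, had 105 and 154 CPM at 48 h and 186 and 264 CPM in untreated cells. Idgf6 had 1478 and 1405 CPM at 48 h, against 2252 and 2219 CPM in untreated cells. Idgf3 had 637 and 561 CPM at 48 h and 669 and 603 CPM in untreated cells, and Idgf4 had 3.66 and 2.49 CPM against 5.80 and 5.63 CPM. Neither was called.

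Kank, an ankyrin-repeat protein, had 10.4 and 9.27 CPM at 48 h and 33.3 and 23.7 CPM in untreated cells (log2 -1.53 ± 0.22, edgeR adjusted p = 4.43e-09). Kank overlaps Cyp317a1 on the opposite strand. bnl, the FGF ligand that guides tracheal branches, had 6.43 and 8.85 CPM at 48 h, against 18.8 and 17.0 CPM in untreated cells (log2 -1.24 ± 0.25, edgeR adjusted p = 1.47e-04). Pvf1, a ligand of the PDGF and VEGF type, had 182 and 139 CPM at 48 h and 268 and 254 CPM in untreated cells (log2 -0.71 ± 0.11, edgeR adjusted p = 4.91e-08). The EGF-type ligand vn moved the other way, with 42.6 and 21.7 CPM at 48 h and 20.8 and 13.1 CPM in untreated cells (log2 0.90 ± 0.19, edgeR adjusted p = 2.44e-04). These 3 were the called members among 9 tested growth factor ligands, a set drawn up after the values were seen. The shares over all genes tested were 1.54% higher and 1.13% lower. nemy, a cytochrome b561 protein, had 39.5 and 46.5 CPM at 48 h, against 76.7 and 78.6 CPM in untreated cells (log2 -0.86 ± 0.14, edgeR adjusted p = 2.97e-07). The other named falls were CG33181 (log2 -1.47), CG4766 (-1.27), the receptor Alk (-1.03), the transcription factors ham (-1.01) and Cph (-0.92), the 5'-nucleotidase NT5E-2 (-1.01) and the extracellular matrix peroxidase Pxn (-0.54).

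The named falls and rises were checked by leaving out 1 library at a time. Of 12 named lower genes, 9 lost their call when at least 1 library was left out, and Kank, Idgf1 and nemy did not. Of 25 named higher genes, 6 did. The call of Alk ended without untreated library 2 (edgeR adjusted p = 0.837), that of ham without 48 h library 1 (1.00) and that of bnl without 48 h library 1 (0.321). Alk had 4.88 and 5.40 CPM at 48 h and 6.32 and 17.0 CPM in untreated cells, so untreated library 2 alone was high.

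The 24 h libraries share the untreated libraries with this comparison, so values are set side by side only. At 24 h, 75 genes were higher (1.05% of those tested) and 63 lower (0.881%). Without the block 7 were higher and 0 lower, without untreated library 1 the counts were 30 and 30, without untreated library 2 they were 24 and 17, and without 24 h library 1 they were 158 and 106. snu had 0.387 and 0.304 CPM in untreated cells, 45.5 and 33.6 CPM at 24 h and 62.6 and 45.1 CPM at 48 h. rtv had 0.258 and 1.22 CPM in untreated cells, 53.3 and 50.6 CPM at 24 h and 45.7 and 54.1 CPM at 48 h, the 2 times overlapping. Idgf1 had 174 and 156 CPM in untreated cells, 103 and 72.3 CPM at 24 h and 72.8 and 63.4 CPM at 48 h. Fbxl7 had no count in untreated cells, 0.903 and 1.34 CPM at 24 h and 3.44 and 2.08 CPM at 48 h. Among the 18 silent genes the 24 h mean ran over 1.01 to 39.5 CPM with a median of 2.56 CPM. The 48 h mean was the higher of the 2 in 17. The 18 were chosen by their 48 h call, which favours high 48 h values. The count of 17 therefore does not measure a further rise after 24 h. Between 48 h and 24 h directly, edgeR called 0 genes, with 125 higher and 111 lower at an unadjusted p under 0.05, and DESeq2 also called 0. The edgeR count was 39 without 24 h library 2, 18 without 48 h library 2, 5 without 24 h library 1 and 1 without 48 h library 1.

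Brains and ovaries of mutant females gave a readout from other libraries, with no auxin and no tag. Each brain library pooled 40 brains and each ovary library 5 pairs of ovaries. In bulk tissue, fewer cells of a type and less RNA per cell cannot be told apart. In the ovary, wild-type library 2, mutant 1 library 1 and mutant 2 library 3 lay apart from the rest of their groups on the second principal component. Of the 110 genes higher in S2 cells, 105 were tested in brain, and 28 were higher there (26.7%) and 2 lower, when the mean of both mutants was set against wild type. Of all 9880 genes tested in brain, 2.26% were higher and 1.03% lower, and among the genes also tested in S2 cells 1.45% were higher. In ovary, 91 were tested, and 39 were higher (42.9%) and 9 lower, beside 14.6% higher and 14% lower of all 8312 genes tested there. Without the 3 ovary libraries that lay apart, 36 were higher. Of the 91 S2-higher genes tested in both tissues, 24 were higher in both. The share of all tested genes that were higher in both tissues was not counted. Each mutant was called higher on its own for 26 of the 28 genes in brain (of all genes tested there 1.9% were higher in mutant 1 and 2.23% in mutant 2) and for 30 of the 39 in ovary (12.2% and 8.77%).

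These shares were also taken by the size of the S2 change. Of the genes that rose at least 2-fold in S2 cells, 24 of 42 tested were higher in brain (57.1%) and 30 of 36 in ovary (83.3%). Of those that rose less than 2-fold, 4 of 63 were higher in brain (6.35%) and 9 of 55 in ovary (16.4%), and 8 of the 55 were lower in ovary. The ovary shares of these small rises were near those of all genes tested there. Of the genes that fell at least 2-fold in S2 cells, 3 of 10 tested were lower in ovary (30%) and 0 higher. Of those that fell less than 2-fold, 3 of 60 were lower in ovary (5%) and 10 higher. Of all genes tested in ovary, 14% were lower and 14.6% higher. The set of 10 is small, and the difference by size of fall was not tested. In brain, 0 of 13 larger falls were lower and 1 higher, and 1 of 64 smaller falls was lower and 0 higher. Of all S2-lower genes, 77 were tested in brain and 70 in ovary. Of the 77 1 was lower (4 without either mutant 2 library) and 1 higher in brain, and of the 70 in ovary 6 were lower (8.57%) and 10 higher (14.3%).

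**Figure D4:**
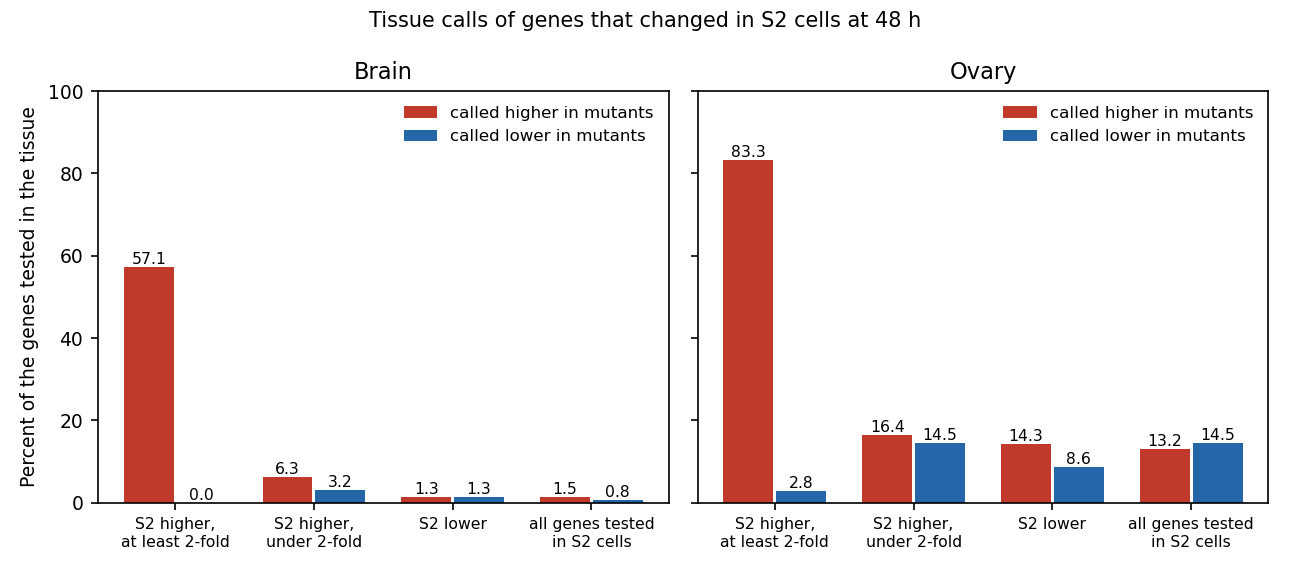
Percent of genes called higher (red) or lower (blue) in mutant brains and ovaries, among genes that changed in S2 cells at 48 h and among all genes tested in S2 cells. Bars stand for the share of the genes tested in that tissue; of S2 genes that rose at least 2-fold, 57.1% were higher in brain and 83.3% in ovary.

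Of the 18 silent genes, 12 of 18 tested were higher in brain and 16 of 16 tested in ovary. Among all genes tested in S2 cells and in the tissue, 1.45% were higher in brain and 13.2% in ovary. All 12 in brain and 15 of the 16 in ovary were higher in each mutant on its own. The remaining gene, zld, rose by log2 0.21 in ovary (edgeR adjusted p = 0.0332, and 0.201 for mutant 2 alone). Of the 39 silent genes that were tested in S2 cells without a call, 1 of 32 was higher in brain and 5 of 26 in ovary. lft averaged 65.2 ± 0.725 CPM in mutant 1 brains and 65.5 ± 2.25 CPM in mutant 2 brains, against 1.5 ± 0.0363 CPM in wild-type brains (SD, n = 2 each; edgeR adjusted p = 1.02e-09). In ovaries it averaged 83.5 ± 4.72 and 87.4 ± 1.27 CPM in mutants 1 and 2, against 0.611 ± 0.342 CPM in wild type (SD, n = 3 each; edgeR adjusted p = 2.61e-12). rtv averaged 23.3 ± 0.168 and 25.2 ± 2.46 CPM in mutant brains and 0.540 ± 0.0234 CPM in wild-type brains. In ovaries rtv averaged 32.2 ± 1.45 and 31.4 ± 3.85 CPM in mutants, against 0.0903 ± 0.0503 CPM in wild type. Both genes were thus low in wild-type tissue as in untreated S2 cells. lft in wild-type brains and rtv in untreated S2 library 2 (1.22 CPM) were above the 1 CPM limit of silence.

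snu and RhoGEF64C, silent in untreated S2 cells, were expressed in wild-type ovaries, snu also in wild-type brains. snu averaged 84.3 ± 0.307 and 87.1 ± 4.90 CPM in mutant brains and 30.9 ± 1.89 CPM in wild-type brains (SD, n = 2 each; edgeR adjusted p = 1.06e-06). In ovaries snu averaged 119 ± 10.4 and 133 ± 8.95 CPM in mutants, against 58.7 ± 6.45 CPM in wild type (edgeR adjusted p = 1.36e-06). conv differed between the tissues, with 0.995 ± 0.0272 and 1.19 ± 0.109 CPM in mutant brains and 0.436 ± 0.00582 CPM in wild-type brains, but 94.7 ± 7.85 and 93.5 ± 5.59 CPM in mutant ovaries and 2.02 ± 0.466 CPM in wild-type ovaries. Dlish averaged 28.3 ± 2.08 and 29.1 ± 1.98 CPM in mutant ovaries and 0.120 ± 0.112 CPM in wild-type ovaries, and Cad96Ca 22.2 ± 2.38 CPM in mutant 1 ovaries and 0.0821 ± 0.0726 CPM in wild-type ovaries. RhoGEF64C had 328 ± 7.87 and 316 ± 2.40 CPM in mutant ovaries and 96.3 ± 0.734 CPM in wild-type ovaries. Of the 18 silent genes, 7 had at least 5 CPM in wild-type brain and 5 in wild-type ovary.

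Some S2 responses were not called in the tissues. Silent genes not called in brain were CG11147, sand, NimC4, zld, CG4115 and CG7991. CG11147 averaged 24.9 ± 2.77 and 25.6 ± 2.60 CPM in mutant brains, against 26.0 ± 0.449 CPM in wild-type brains (edgeR adjusted p = 0.911). NimC4 averaged 12.1 ± 0.214 and 12.2 ± 1.75 CPM in mutant brains and 12.3 ± 1.61 CPM in wild-type brains. The glutathione transferases did not follow S2 cells. GstE6 averaged 74.2 ± 6.44 and 77.0 ± 2.75 CPM in mutant ovaries, against 92.0 ± 13.5 CPM in wild-type ovaries, a fall (edgeR adjusted p = 0.0256), and was not called in brain. GstE3 and GstD9 were called in neither tissue. Idgf1 averaged 9.66 ± 1.75 and 10.6 ± 1.30 CPM in mutant brains and 9.43 ± 1.15 CPM in wild-type brains, and Kank 99.3 ± 3.70 and 103 ± 4.57 CPM against 97.7 ± 1.24 CPM. Neither was called in brain. In ovary Idgf1 was not tested and Kank was not called. Other named falls were called lower in ovary: nemy (edgeR adjusted p = 0.0324), Cph (8.24e-04), NT5E-2 (0.00583) and bnl (0.0180). Dif was higher in ovary (edgeR adjusted p = 0.00657). Of all genes tested in ovary, 14% were lower.

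**Figure D5:**
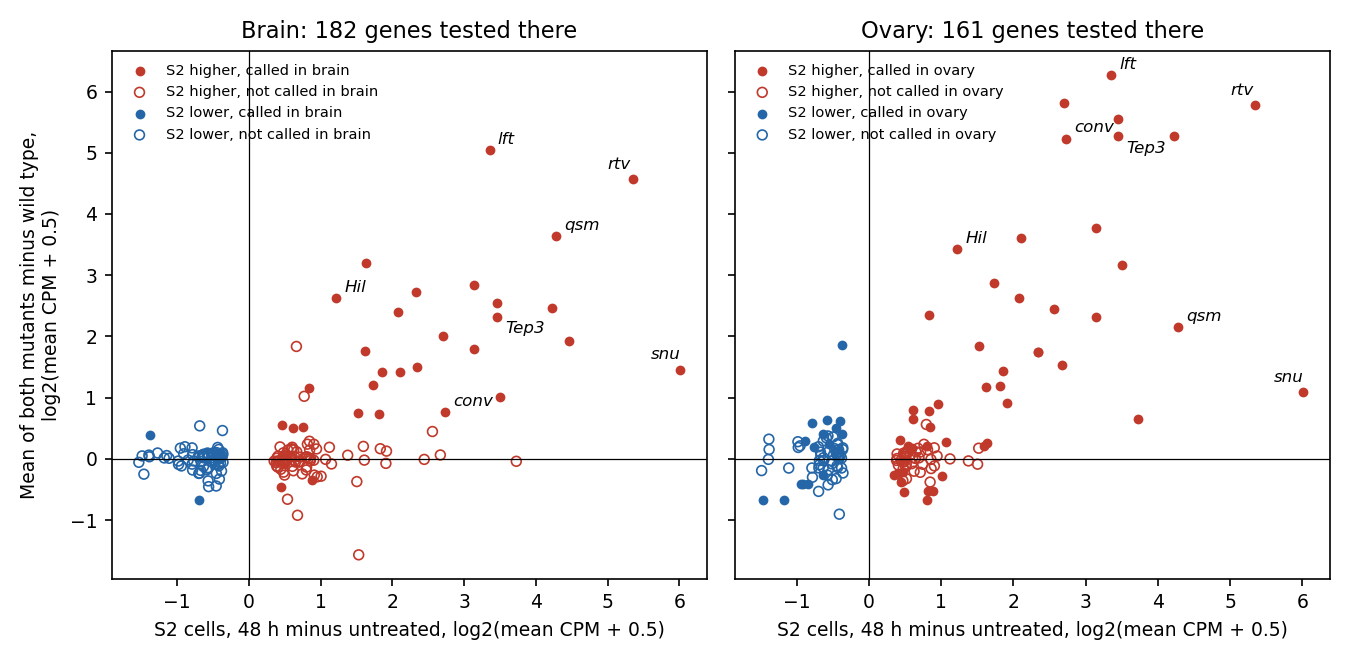
Change in mutant tissue (mean of both mutants minus wild type) against change in S2 cells (48 h minus untreated), both on the log2(mean CPM + 0.5) scale, for genes called in S2 cells and tested in brain (left, 182 genes) or ovary (right, 161 genes). Red marks genes higher and blue genes lower in S2 cells, filled where the gene was called in the tissue; the large S2 rises lie mostly above 0 in both tissues, and the S2 falls lie on both sides of 0.

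Read from the fly side, 186 of the genes higher in mutant brains were in the S2 table. Of these, 98 were tested in S2 cells, 28 were higher at 48 h (28.6%) and 1 was lower, and 83 were silent in untreated cells and too low to be tested. Of ovary-higher genes 867 were tested in S2 cells, and 39 were higher at 48 h (4.50%) and 10 were lower. Of all genes tested in S2 cells, 1.54% were higher and 1.13% lower. The 28 and 39 are the same genes counted above from the S2 side. The 28 genes made up 26.7% of the S2-higher genes tested in brain and 28.6% of the brain-higher genes tested in S2 cells.

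Markers of other cell types were examined for the same libraries. Of the tested neuron (6), glia (3), muscle (3), fat body (4), germline and follicle (1) and epidermis (2) markers, 0 were called. Of all genes tested in S2 cells at 48 h, 1.54% were higher and 1.13% lower. At such shares, lists as short as those of this paragraph hold few calls, so 0 calls does not set a list apart. Summed over the list, neuron markers had 1063 and 809 CPM at 48 h and 1219 and 857 CPM in untreated cells. Epidermis markers had 16.1 and 25.3 CPM at 48 h, against 11.9 and 23.4 CPM in untreated cells, and 6 of the 8 in the table, among them grh and vvl, were silent. Muscle markers summed to 29.1 and 25.3 CPM at 48 h and 19.1 and 15.5 CPM in untreated cells, without overlap, and 8 of 12 were silent; their part in the result was not tested. None of 34 tested heterochromatin and corepressor genes was called, with 13057 and 11480 CPM summed at 48 h and 14007 and 11989 CPM in untreated cells. None of 15 tested heat shock genes was called. Their sums, 3622 and 4613 CPM at 48 h and 3551 and 5354 CPM in untreated cells, were higher in replicate 2 of each group. Of 14 tested hemocyte markers 1, Pxn, was lower.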

How the data were processed

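The authors deposited raw whole-number counts per transcript for S2 cells and estimated counts per gene for the tissues. The submitters' processing notes name build dm3 and, for the tissues, Salmon 1.2.1 and Trim Galore 0.6.2; the S2 aligner and counter were not stated. Per the labels' protocols, S2 libraries read the 3' end of mRNA, and tissue libraries used a directional kit after rRNA depletion. Of 26009 S2 transcripts, 356 matched no gene of the BDGP6 annotation (0.361% to 0.418% of counts) and were dropped. Because isoforms repeat reads of a shared 3' end, the isoform with most counts stood for each of 11010 genes. Tissue estimates were rounded, and 235 tissue identifiers were matched by symbol. Gene totals ran over 14.1 to 21.5 M counts in ovary libraries and 39.0 to 45.6 M in brain libraries.

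The quasi-likelihood F test of edgeR 4.0.16 in R 4.3.3 was used with TMM scaling and edgeR's low-count filter. A single fit held all 6 S2 libraries, with terms for group and replicate number; brain and ovary fits had group alone. The call threshold was a Benjamini-Hochberg adjusted p of 0.05 over all genes tested. SEs are the absolute log2 change over the square root of F. Bounds and ratios use summed counts over summed scaled library sizes, and intervals cover counting error only. DESeq2 1.42.0 was an alternative. The fits were first tested on simulated data. Same-numbered S2 libraries deviated together from their group means (correlation 0.834 for untreated and 48 h, 0.784 for untreated and 24 h, 0.723 for 24 h and 48 h, over 4231 genes at a mean of at least 16 CPM), a sign from the data that the labels do not explain. Replicate libraries differed by more than counting error and none was merged. No label names separate cultures or dissections, so the spread behind p-values may be technical.

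The comparison, its lists and its genes were chosen with earlier results of these data known. Named genes were CG11247, genes called with and without the block, the 10 largest rises and falls at a mean of at least 5 CPM in the higher group without overlap, the 10 silent genes highest at 48 h, up to 4 called members a list, and up to 10 genes called in both tissues. Other silent genes, sut1, gene families and genes beside a threshold were named after their values were seen.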

Additional observations from a re-analysis of the deposited data

How the results depend on the processing

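Of the counts at 48 h, 110 higher, 81 lower and 18 silent became 8, 0 and 3 with no replicate block, 47, 29 and 10 with DESeq2, and 56, 36 and 18 with isoforms summed. With only the untreated and 48 h libraries they were 187, 150 and 16. Of the genes called with isoforms summed, 52 higher and 33 lower were among the 110 and 81. Other size factors (109, 85 and 18), no low-count filter (105, 75 and 17) and, chosen after seeing the data, edgeR's bias-adjusted deviance (109, 83 and 17) kept them within 1.5 times. Leaving out 1 library gave 42 to 178 higher, 26 to 138 lower and 11 to 17 silent, with the most higher and lower genes when 24 h library 2 was left out. The 24 h counts, 75 and 63, became 7 and 0 with no block, 30 and 21 with DESeq2, 38 and 37 with isoforms summed, and 24 to 158 and 17 to 106 without 1 library. Between 48 h and 24 h, 0 became 1 without the filter and 0 to 39 without 1 library. In brain the 28 higher genes stayed at 24 to 32 without 1 library, and the 1 lower gene became 3 with a replicate block in the tissue fit, 2 with DESeq2, 2 with other size factors, 3 without the filter and 1 to 4 without 1 library. In ovary, 39 and 6 became 32 to 41 and 4 to 6 without 1 library, and 36 and 4 without the 3 libraries that lay apart, an alternative chosen after seeing the data. For the 8 genes called with no block in S2 cells, all 8 were higher in brain and in ovary. Of all genes tested, 2.26% were higher in brain and 14.6% in ovary. With 0 lower genes called in S2 cells with no block, the counts of lower genes in the tissues were 0. A replicate block in the tissue fits changed no other count. Of 37 named genes with a call, 22 kept it without any 1 library and 15 did not; no named gene reversed. When 1 library is left out, its group has 1 sample, which is assumed to vary like the others. The cause of these differences was not tested. At 6.42 to 8.93 M counts a gene under about 1 CPM is a matter of a few reads, so most silent genes could not be tested.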

Other observations

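Among genes that rose less than the leaders were several with roles at the cell surface and in signalling; they were chosen after their values were seen. Mmp1, a matrix metalloprotease, had 66.9 and 98.6 CPM at 48 h, against 29.5 and 63.3 CPM in untreated cells (log2 0.91 ± 0.13, edgeR adjusted p = 2.89e-08). cv-2, which binds BMP ligands, had 16.4 and 21.2 CPM at 48 h and 9.28 and 12.5 CPM in untreated cells (log2 0.80 ± 0.23, edgeR adjusted p = 0.0271). With DESeq2 cv-2 was not called (adjusted p = 0.454). The gap junction gene Inx2 had 14.2 and 15.4 CPM at 48 h, against 4.00 and 11.9 CPM in untreated cells (log2 1.04 ± 0.26, edgeR adjusted p = 0.00693), and the rise was larger in pair 1. The unconventional myosin Myo10A had 10.2 and 5.26 CPM at 48 h and 1.29 and 1.52 CPM in untreated cells (log2 2.44 ± 0.42, edgeR adjusted p = 3.88e-06). Without the block the edgeR adjusted p of Myo10A was 0.508. Myo10A overlaps C901, Rab9Fa and Rab9Fb on the opposite strand.

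Transcription factors were among them too. Eip93F, an ecdysone-induced factor, had 15.7 and 29.5 CPM at 48 h, against 8.12 and 14.9 CPM in untreated cells (log2 0.97 ± 0.22, edgeR adjusted p = 0.00108). Sox14, another gene of the ecdysone response, had 27.7 and 25.7 CPM at 48 h and 18.4 and 13.1 CPM in untreated cells (log2 0.77 ± 0.19, edgeR adjusted p = 0.00683). SoxN had 282 and 156 CPM at 48 h, against 203 and 128 CPM in untreated cells (log2 0.39 ± 0.11, edgeR adjusted p = 0.0271), with overlapping groups.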
